A study of Homo sapiens with 12 samples.

Results

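The genes described here were 40 human imprinted genes of 58735 genes in the count tables, chosen by name from 19 imprinted clusters or single loci and matched to Ensembl identifiers through GENCODE 29 on GRCh38. RNA was measured in HAP1, a near-haploid human line derived from a chronic myelogenous leukemia, as wild type (WT) and as a derivative with a knockout of SETDB1, here called SETDB1 KO. SETDB1 encodes a histone methyltransferase that places methyl groups on lysine 9 of histone H3. Total RNA of each genotype was sequenced as 3 libraries from a non-directional kit, in which the strand is lost, and as 3 libraries from a directional kit, in which it is preserved, so that 12 libraries were available. All cells were grown in the same medium and no treatment was labelled. The labels call the 3 libraries of a group biological replicates but do not say whether they came from separate cultures, so p-values measure only the spread between these libraries. They also do not say whether the KO is a single clone, so what the knockout did and what sets one clone apart from its parent line cannot be told apart. The question asked of these libraries was which imprinted genes were higher or lower in the SETDB1 KO than in the WT in the non-directional kit.

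An imprinted gene is transcribed mainly or only from the copy inherited from one parent. The choice is set by DNA methylation laid down in the egg or sperm at an imprinting control region, and this methylation is kept through later cell divisions by a complex in which a zinc finger protein, ZFP57 or ZNF445, binds the methylated DNA and recruits TRIM28 and, with it, SETDB1. Imprinted genes lie in clusters that often pair a long non-coding RNA with protein-coding genes for growth control, and loss of the paternal copies in 15q11-q13 causes Prader-Willi syndrome. Because HAP1 carries a single copy of nearly every chromosome, each of these loci is present as the copy of 1 parent, and counts of reads do not tell which.

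Promoter sequences are shown for 5 windows, chosen from a silent start, from genes called higher or lower and from one not called, so that their CpG dinucleotides and copies of the hexamer TGCCGC, the core of the ZFP57 motif, can be compared. Each window is a RefSeq transcript start on GRCh38.p14 and spans 300 bases, most of them upstream, printed 5′ to 3′ on the strand of the gene. Capitals mark TGCCGC or its reverse complement GCGGCA, which were the letters searched.
SNURF and SNRPN, shared start, chr15:24954737-24955036, plus strand, silent in all libraries but for 1 read: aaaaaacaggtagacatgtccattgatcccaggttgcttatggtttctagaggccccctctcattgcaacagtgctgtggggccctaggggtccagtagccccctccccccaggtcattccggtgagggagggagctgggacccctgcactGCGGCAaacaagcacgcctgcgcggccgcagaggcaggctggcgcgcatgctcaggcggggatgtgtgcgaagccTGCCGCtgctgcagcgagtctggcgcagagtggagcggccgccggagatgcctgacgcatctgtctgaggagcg
MEST, chr7:130491835-130492134, plus strand, higher in the KO: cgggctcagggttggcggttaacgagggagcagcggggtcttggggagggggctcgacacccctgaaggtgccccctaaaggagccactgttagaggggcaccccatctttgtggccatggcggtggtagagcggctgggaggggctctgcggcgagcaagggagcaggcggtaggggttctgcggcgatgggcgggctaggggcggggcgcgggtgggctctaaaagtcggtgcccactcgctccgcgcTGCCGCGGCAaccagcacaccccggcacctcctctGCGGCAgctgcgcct
NAP1L5, chr4:88697780-88698079, minus strand, not called different: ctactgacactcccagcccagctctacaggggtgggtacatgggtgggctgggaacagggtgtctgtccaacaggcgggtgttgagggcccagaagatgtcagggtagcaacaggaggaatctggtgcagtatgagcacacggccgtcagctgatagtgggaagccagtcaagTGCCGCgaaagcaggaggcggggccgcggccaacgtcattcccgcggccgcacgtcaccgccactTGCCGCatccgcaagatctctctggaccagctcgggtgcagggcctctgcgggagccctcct
ZDBF2, chr2:206274760-206275059, plus strand, higher in the KO: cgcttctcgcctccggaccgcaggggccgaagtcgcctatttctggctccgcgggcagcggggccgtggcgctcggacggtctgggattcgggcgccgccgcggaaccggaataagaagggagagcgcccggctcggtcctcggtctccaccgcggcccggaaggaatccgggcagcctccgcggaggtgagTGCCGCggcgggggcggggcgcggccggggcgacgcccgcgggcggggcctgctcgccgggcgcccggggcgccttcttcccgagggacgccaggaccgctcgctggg
TP73, chr1:3652266-3652565, plus strand, lower in the KO: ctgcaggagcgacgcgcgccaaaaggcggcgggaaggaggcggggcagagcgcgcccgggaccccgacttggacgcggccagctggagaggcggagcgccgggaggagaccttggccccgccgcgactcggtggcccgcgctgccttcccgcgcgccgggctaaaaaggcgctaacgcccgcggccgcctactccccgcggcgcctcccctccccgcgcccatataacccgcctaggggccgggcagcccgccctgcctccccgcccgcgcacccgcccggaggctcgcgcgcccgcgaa

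The 5 windows held 18, 25, 18, 50 and 49 CpG dinucleotides and 2, 3, 2, 1 and 0 copies of the hexamer, in the order printed. Of the 40 genes, 27 had at least 1 window in the RefSeq table, 59 windows in all. The median window of these genes held 18 CpG, against 14 in the 35116 windows of all genes. The hexamer was in 23 of the 59 windows (39.0%), and 16.7% of all windows held it. The hexamer itself contains a CpG, and the 2 sets of windows were not matched for CpG content. Windows are not independent, since those of SNURF and SNRPN, MEG3, MEST and BLCAP overlap or coincide and count the same hexamer more than once. By gene, 15 of 27 had it in some window, and genes with more windows have more room for a match. The share by gene over all genes was not counted. Genes with the hexamer were found among those higher in the KO (MEST, ZDBF2, IGF2R and BLCAP), those lower in the KO (GRB10, OSBPL5 and GNAS) and those with hardly any reads (SNURF, SNRPN, NDN and DIRAS3). No window held it for TFPI2 and INPP5F (higher), TP73, RB1 and UBE3A (lower), or MKRN3, MAGEL2, USP29 and RTL1 (hardly any reads). Of the genes not called, NAP1L5 and PLAGL1 had it and COPG2, H19 and PPP1R9A did not. MEG3 and L3MBTL1, with few reads, also had it. A match of these letters is a description of the window and not a bound site. The 13 genes with no window were ASCL2, SLC22A18, IGF2, KCNQ1, SGCE, PEG3, PHLDA2, KCNQ1OT1, PEG10, NNAT, GNAS-AS1, CDKN1C and DLK1.

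The non-directional libraries held 8921959 to 10199215 gene counts, and 3 counts, taken as the smallest number the depth can show, equalled 0.294 to 0.336 counts per 1000000 (CPM). SETDB1 itself had 651, 543 and 519 reads in the WT and 118, 106 and 118 in the KO (log2 fold change -2.39 ± 0.08 SE, adjusted p = 7e-43), so transcripts of the targeted gene remained at a lower level. The 3 KO libraries differed from each other by no more than sampling noise, whereas WT replicate 2 stood apart from the other WT libraries (chi-square per degree of freedom 1.82 and 2.00, against 1.03 for WT replicates 1 and 3). In a check of the labelled cell type, reads for the blood cell markers CD33, MPO, SPI1 and HBG1 were 0 in all 6 libraries and PTPRC had at most 1 read, while ITGAM had 2 to 4 reads in each library and LMO2 had 2, 1 and 1 in the WT and 8, 13 and 5 in the KO. KIT and TAL1 were well detected, and TAL1 was lower in the KO (log2 fold change -2.32 ± 0.14 SE, adjusted p = 1.6e-25). Adjusted p-values are from edgeR's quasi-likelihood test with Benjamini-Hochberg adjustment over all genes tested, and a gene was called different at an adjusted p under 0.05. Mean values are TMM-scaled CPM with their SD (n = 3 libraries per group).

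Of the 40 imprinted genes, 23 had enough reads to be tested, and of these 7 rose, 10 fell and 6 were not called in the SETDB1 KO. The background was high, because 51.5% of all 13778 genes tested were called different, 25.5% higher and 25.9% lower. In a joint fit of all 12 libraries the split over all genes was 2400 higher and 4170 lower, against 3517 and 3572 here, and 5 imprinted genes rose and 9 fell. The changes of most imprinted genes were small. Only IGF2, encoding a fetal growth factor, was called different by 2-fold or more, while 22 of 23 tested genes changed by less, and 7.8% of all genes tested were called with a change of 2-fold or more. The log2 fold changes ranged from -4.15 for IGF2 to 0.93 for TFPI2 with a median of -0.08, against a median of -0.0012 over all genes tested. Among the 17 genes called, only UBE3A had KO values that overlapped the WT values in CPM. The share without overlap over all genes called was not counted, so this cannot be read as particular to imprinted genes. Among genes listed here as paternally expressed 3 of 7 tested rose and 2 fell. Among those listed as maternally expressed 1 of 9 rose and 5 fell, UBE3A with a marginal call among them. Of the 7 listed as depending on tissue or isoform for the parental allele, 3 rose and 3 fell. Each gene was given a single label, which does not say in which tissues it is imprinted, so the groups are rough.

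**Figure D1:**
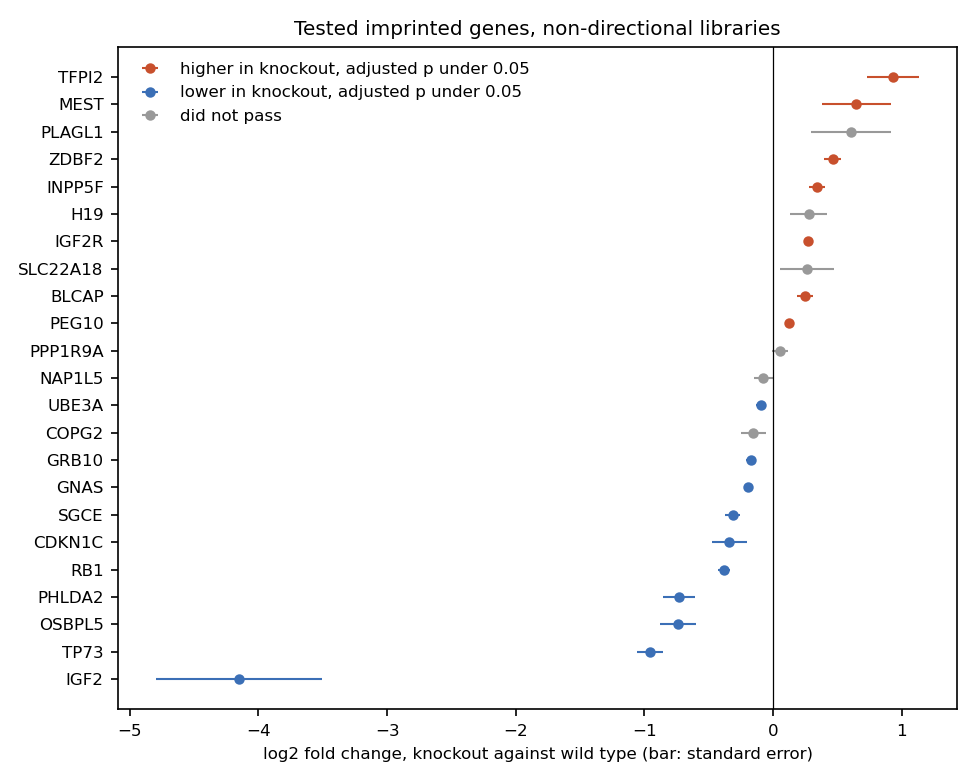
Log2 fold change of each tested imprinted gene in SETDB1 KO against WT, non-directional libraries (x axis), with bars for the standard error and colours for the call. Most genes lie between -1 and 1, and IGF2 at -4.15 stands far to the left with the widest bar.

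The 17 genes that were not tested had few or no reads. MAGEL2, SNURF, ASCL2, PEG3 and USP29 had 0 reads in all 6 libraries. In a further 7 genes no library had more than 1 or 2 reads, and the remaining 5, KCNQ1, MEG3, DLK1, NNAT and L3MBTL1, reached 3 or more reads in some library. With no reads in a library, the depth allows up to about 0.3 CPM, so presence below this level was not detectable.

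**Figure D2:**
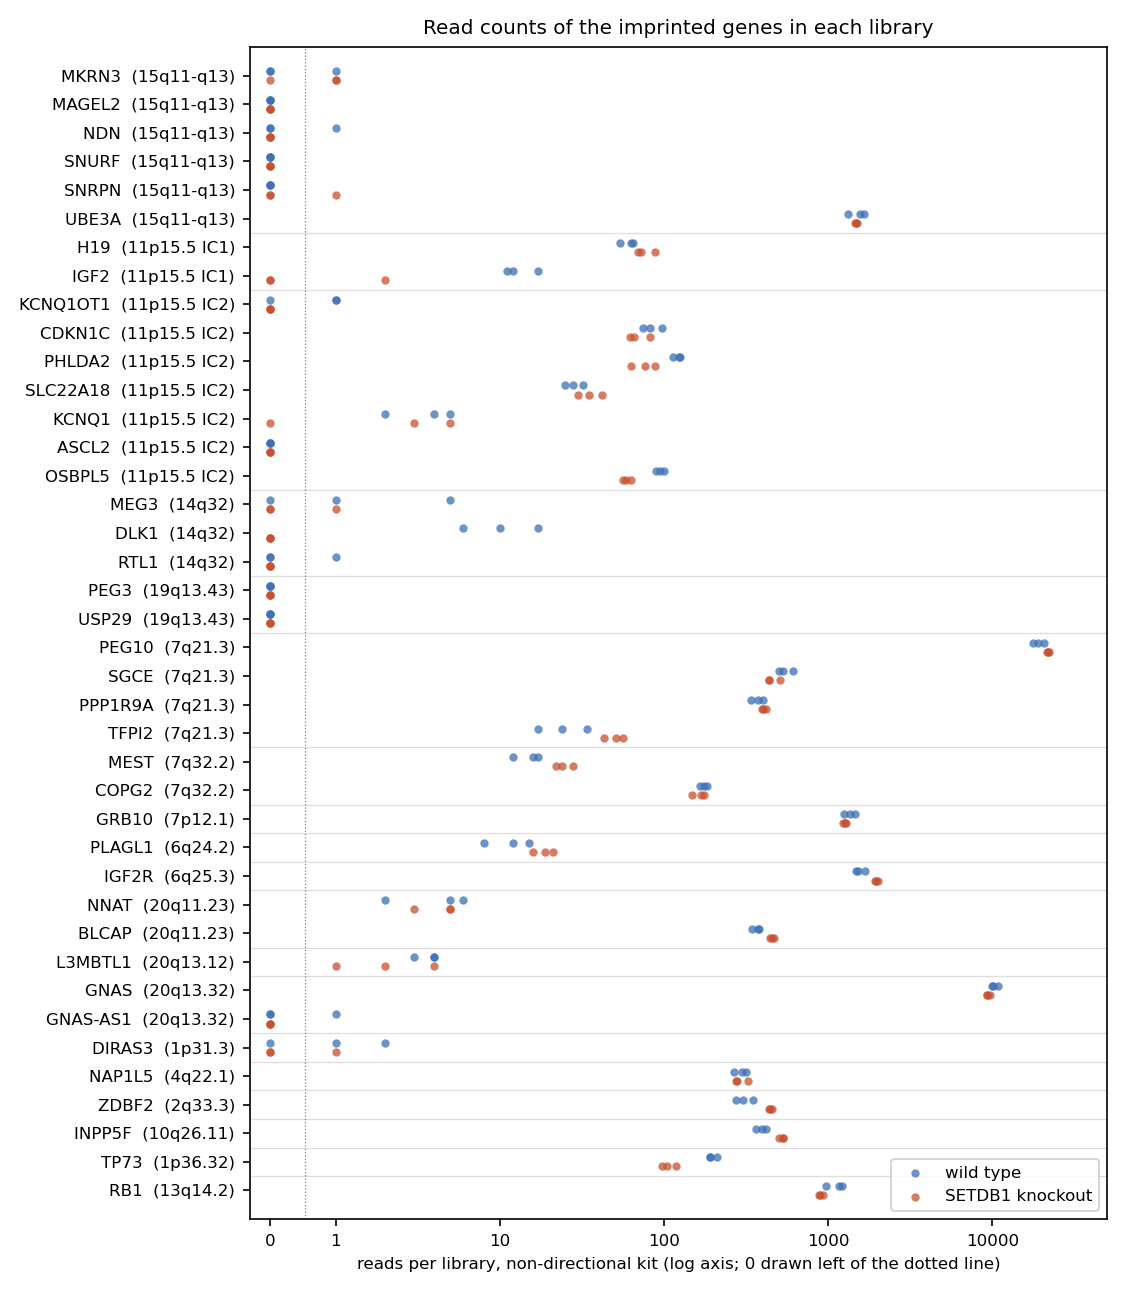
Reads per library (log axis, with 0 drawn left of the dotted line) of all 40 imprinted genes, each point a WT or SETDB1 KO non-directional library, ordered by cluster. The 5 paternally expressed genes of 15q11-q13 lie at 0 or 1 read in every library of both genotypes, whereas UBE3A in the same cluster had 1314 to 1648 reads.

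The Prader-Willi and Angelman cluster on chromosome 15 (23565674 to 25439056) held hardly any non-directional reads of its 5 paternally expressed genes listed here, in either genotype. MKRN3, encoding a ubiquitin ligase that restrains the onset of puberty, had 1, 0 and 0 reads in the WT libraries and 0, 1 and 1 in the KO. MAGEL2, an adaptor of a ubiquitin ligase acting in protein recycling, had no reads in any library. NDN, encoding the growth suppressor necdin, had 1 read in a single WT library and none in the KO. SNURF had none, and SNRPN, which encodes a protein of the spliceosome and shares its promoter with SNURF, had a single read in KO replicate 1. The 5 genes together held 2 reads among 28517472 gene counts of the WT and 3 among 29732414 of the KO, so no difference was detectable at this depth. Since HTSeq-type counting leaves out reads that fall in more than one gene, reads in exons that overlap another gene could be lost. For SNURF 30.7% and for SNRPN 66.4% of the exon length is free of such overlap, and for MAGEL2 and NDN all of it is.

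The long non-coding transcript SNHG14, which starts in the same region and runs antisense into UBE3A, had 1, 0 and 0 reads in the WT and 3, 2 and 4 in the KO, too few to be tested. In the directional tables it had 174, 162 and 148 reads in the WT and 173, 143 and 138 in the KO, with overlapping groups (log2 fold change -0.04 ± 0.10 SE, adjusted p = 0.85). Whether these reads came from SNHG14 or from UBE3A on the opposite strand was not tested. UBE3A, the ubiquitin ligase gene lost in Angelman syndrome, was well expressed. It had 1648, 1314 and 1568 reads in the WT and 1480, 1456 and 1508 in the KO, or 159 ± 9.85 and 149 ± 1.76 CPM. The groups overlapped, and the call of a lower level was marginal (log2 fold change -0.09 ± 0.04 SE, adjusted p = 0.033). The call was lost when any library except WT replicate 2 was left out, with the adjusted p then between 0.0533 and 0.243, and also with the 3 KO libraries counted as 1 (adjusted p = 0.21), with library totals alone (0.0515) and with DESeq2 (0.13). ATP10A, a lipid flippase gene beside UBE3A, was lower in the KO by a larger amount, with 349, 338 and 325 reads in the WT and 165, 189 and 186 in the KO (log2 fold change -0.97 ± 0.08 SE, adjusted p = 8.9e-19).

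Chromosome 11p15.5 carries 9 of the genes in 2 domains with separate control regions. Of these 6 were tested, 4 fell, none rose and 2 were not called, beside 51.5% of all genes called and 25.9% called lower. In the first domain, IGF2 (ENSG00000167244, chromosome 11, 2129112 to 2149603, minus strand) had 11, 17 and 12 reads in the WT and 2, 0 and 0 in the KO. All KO libraries were below all WT libraries, and the log2 fold change was -4.15 ± 0.64 SE (adjusted p = 5.2e-08). The fitted value was -6.78 without KO replicate 1, the only KO library with reads, and -3.62 without KO replicate 3, still called in both. Summed over libraries the WT level was 20.9 times that of the KO, with a 95% exact interval of 5.41 to 178 that covers counting error only. IGF2 passed the filter on low counts through the WT alone, and even there its level of 0.2 reads per kilobase per 1000000 (RPKM) was above only 2.78% of the genes tested. Of its 6979 exon bases only 1744 are free of overlap with other annotated genes, among them a second IGF2 identifier with 0 reads in every library, so its reads are an uncertain measure of the gene. H19, the maternally expressed non-coding RNA of the same domain, was not called. It had 63, 54 and 65 reads in the WT and 70, 73 and 88 in the KO, all KO values above all WT values (log2 fold change 0.28 ± 0.14 SE, adjusted p = 0.10).

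In the second domain 3 of the 4 tested genes, all known for maternal expression, were lower in the KO. PHLDA2, which limits placental growth, had 126, 123 and 113 reads in the WT and 63, 88 and 77 in the KO. Its level was 12.8 ± 0.976 CPM in the WT and 7.66 ± 1.26 in the KO (log2 fold change -0.73 ± 0.12 SE, adjusted p = 5e-07). OSBPL5, encoding a lipid transfer protein, had 89, 100 and 95 reads in the WT and 63, 59 and 56 in the KO (log2 fold change -0.74 ± 0.14 SE, adjusted p = 4.3e-06). For both genes every KO library was below every WT library.

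CDKN1C, encoding the cell cycle inhibitor p57, had 97, 75 and 82 reads in the WT and 66, 62 and 82 in the KO, which in CPM do not overlap (8.92 ± 0.539 and 7.05 ± 0.912). Its fall (log2 fold change -0.34 ± 0.14 SE, adjusted p = 0.03) did not pass without WT replicate 1, KO replicate 1 or KO replicate 2 (adjusted p = 0.12, 0.0924 and 0.15), nor with the KO libraries counted as 1 (0.0529) or with DESeq2 (0.15). SLC22A18, encoding a transporter of the organic cation family, had 32, 28 and 25 reads in the WT and 35, 42 and 30 in the KO, with overlapping groups (log2 fold change 0.26 ± 0.21 SE, adjusted p = 0.31). KCNQ1OT1, the antisense RNA whose promoter is the control region of this domain, had 0, 1 and 1 reads in the WT and none in the KO. KCNQ1, a potassium channel gene, had 5, 2 and 4 reads in the WT and 0, 3 and 5 in the KO. ASCL2, a transcription factor gene of the placenta and the intestinal stem cell, had none.

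On 14q32, DLK1 (ENSG00000185559, chromosome 14, 100725705 to 100738224), which encodes a membrane protein of the Notch ligand family, had 17, 10 and 6 reads in the WT and 0, 0 and 0 in the KO. These counts fell short of the filter, so the gene was not among those tested. With the 3-count floor taken over the KO group, the KO level was at least 11.5-fold lower. A two-sided exact permutation test over the 6 libraries gave p = 0.10, the smallest that 3 against 3 libraries can give. When all genes with any read were tested without the filter, DLK1 passed (adjusted p = 3.1e-10). MEG3, the maternally expressed non-coding RNA of the cluster, had 5, 0 and 1 reads in the WT and 0, 1 and 0 in the KO. RTL1, a gene derived from a retrotransposon, had 1 read in all.

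On 19q13.43 the zinc finger gene PEG3 and the ubiquitin protease gene USP29 had 0 reads in all 6 libraries, as did their imprinted neighbours ZIM2 and MIMT1. ZNF264 of 19q13.43, on the second list of imprinted genes, did have reads. They rose from 17 summed over the WT libraries to 553 over the KO libraries. Among the tested genes within 1 Mb that were on neither list of imprinted genes, 32 of 51 rose and 2 fell in the KO, beside 25.5% and 25.9% of all genes, with a median log2 fold change of 0.36. Across the remaining 18 loci, these medians lay between -0.14 and 0.15.

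**Figure D3:**
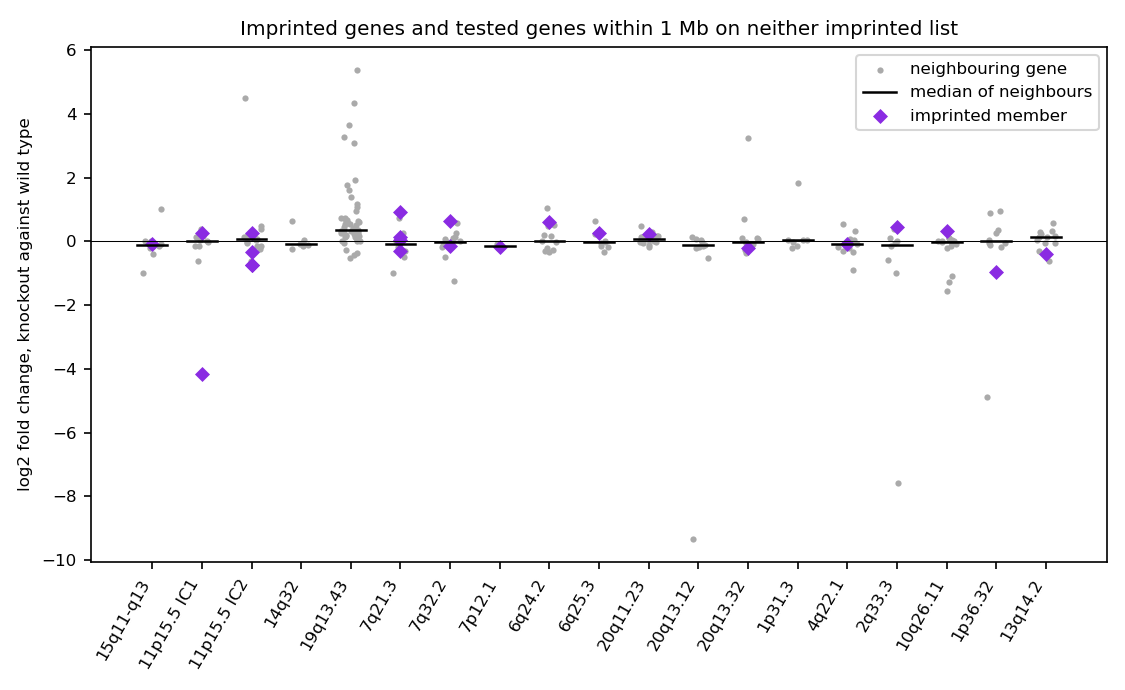
Log2 fold change in SETDB1 KO against WT, non-directional libraries (y axis), of the tested imprinted genes (diamonds) and of the tested genes within 1 Mb on neither list of imprinted genes (grey points, median as a bar) at each locus (x axis). At 19q13.43 most neighbours lie above 0, and neither PEG3 nor USP29 could be tested. Imprinted genes of the second list, ZNF264 among them, are not drawn. At 2q33.3 and 1p36.32 ZDBF2 and TP73 lie at 0.46 and -0.96, beside neighbour medians of -0.10 and 0.01. Single neighbours spread widely there, from -7.59 (FASTKD2) to 0.40 (INO80D) at 2q33.3 and from -4.89 (PRDM16) to 0.95 (MEGF6) at 1p36.32.

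The 4 genes of 7q21.3 moved in both directions. PEG10, a paternally expressed gene derived from a retrotransposon, was the most abundant of the 40 at 302 RPKM in the WT, above 99.5% of the genes tested. It had 20552, 17760 and 19053 reads in the WT and 21716, 21562 and 22294 in the KO. Its rise was small but larger than the spread between libraries (2021 ± 15.9 against 2205 ± 15.4 CPM, log2 fold change 0.13 ± 0.02 SE, adjusted p = 6.2e-07). In a fit over all 12 libraries the change was 0.06 with an adjusted p of 0.059. The median log2 fold change over all genes was also lower in that fit, at -0.046 against -0.0012. SGCE, encoding a sarcoglycan of the muscle membrane and read outward from the same promoter region on the other strand, went down. It had 614, 504 and 529 reads in the WT and 439, 439 and 511 in the KO, or 57.95 ± 2.02 and 46.7 ± 3.15 CPM (log2 fold change -0.31 ± 0.06 SE, adjusted p = 2.7e-06).

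TFPI2, a maternally expressed protease inhibitor gene, had 34, 17 and 24 reads in the WT and 56, 43 and 51 in the KO. Every KO library was above every WT library, and the rise was the largest among the 23 tested genes (log2 fold change 0.93 ± 0.20 SE, adjusted p = 6.7e-05). Its WT level was low, at 0.97 RPKM above only 16.3% of all genes tested. PPP1R9A, encoding a protein of the actin cytoskeleton in neurons, had 399, 341 and 376 reads in the WT and 404, 394 and 418 in the KO (log2 fold change 0.06 ± 0.06 SE, adjusted p = 0.48).

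On 7q32.2, MEST, a paternally expressed gene of the hydrolase family that is active in the embryo, had 17, 12 and 16 reads in the WT and 24, 28 and 22 in the KO. The KO values were all above the WT values (1.58 ± 0.194 and 2.49 ± 0.345 CPM, log2 fold change 0.65 ± 0.27 SE, adjusted p = 0.036). The call did not hold without WT replicate 1 or 2 or without KO replicate 1 or 2 (adjusted p = 0.0620, 0.11, 0.0672 and 0.15), nor with the KO libraries counted as 1 (0.0647), with no filter (0.0630), with all 12 libraries in the fit (0.0894) or with DESeq2 (0.16). COPG2, a coat protein gene that overlaps the end of MEST on the other strand, had 182, 176 and 165 reads in the WT and 149, 176 and 168 in the KO (log2 fold change -0.15 ± 0.09 SE, adjusted p = 0.17).

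Among receptors and signalling genes, IGF2R, which clears IGF2 from the cell surface, rose. It had 1685, 1477 and 1526 reads in the WT and 1967, 1940 and 2025 in the KO (165 ± 1.84 and 199 ± 1.8 CPM, log2 fold change 0.27 ± 0.03 SE, adjusted p = 2.1e-10). GRB10, an adaptor that dampens insulin receptor signalling, fell slightly, with 1457, 1251 and 1360 reads in the WT and 1239, 1279 and 1270 in the KO (log2 fold change -0.17 ± 0.04 SE, adjusted p = 1.1e-04). GNAS, encoding the stimulatory G protein alpha subunit, was the second most abundant member at 82.2 RPKM. It had 10891, 10116 and 10030 reads in the WT and 9296, 9337 and 9753 in the KO (1095 ± 41.8 and 954 ± 4.89 CPM, log2 fold change -0.20 ± 0.02 SE, adjusted p = 4.7e-11). For all 3 genes the groups did not overlap in CPM. The antisense RNA GNAS-AS1 had 1 read in all.

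The tumour suppressor genes TP73 and RB1 were lower in the KO. TP73, encoding a relative of p53, had 212, 190 and 192 reads in the WT and 105, 97 and 119 in the KO, so that every KO library was far below every WT library. Its level went from 20.9 ± 0.48 to 10.8 ± 0.914 CPM (log2 fold change -0.96 ± 0.10 SE, adjusted p = 1e-13). RB1, encoding the retinoblastoma protein, had 1217, 975 and 1158 reads in the WT and 887, 880 and 926 in the KO (log2 fold change -0.38 ± 0.04 SE, adjusted p = 3.1e-12). LPAR6, a receptor gene inside an intron of RB1, rose from 15, 9 and 16 reads to 40, 44 and 40 (log2 fold change 1.56 ± 0.24 SE, adjusted p = 6.4e-08). PLAGL1, a zinc finger gene with growth-suppressing activity, had 8, 12 and 15 reads in the WT and 19, 21 and 16 in the KO (log2 fold change 0.60 ± 0.31 SE, adjusted p = 0.0932), and passed only without WT replicate 3 (log2 fold change 0.83, adjusted p = 0.0487). DIRAS3, a small GTPase gene that slows growth, had at most 2 reads in a library.

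Several single genes at other loci rose. ZDBF2, a paternally expressed zinc finger gene, had 349, 274 and 302 reads in the WT and 435, 458 and 442 in the KO (log2 fold change 0.46 ± 0.07 SE, adjusted p = 4.1e-09). INPP5F, a phosphoinositide phosphatase gene, had 396, 364 and 419 reads in the WT and 530, 504 and 530 in the KO (log2 fold change 0.34 ± 0.06 SE, adjusted p = 1.3e-06). BLCAP, a small gene first described in bladder cancer, had 381, 376 and 343 reads in the WT and 441, 458 and 470 in the KO (log2 fold change 0.25 ± 0.06 SE, adjusted p = 6.0e-04). In each the KO libraries lay above the WT libraries.

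NAP1L5, a paternally expressed retrogene related to the nucleosome assembly proteins, had 316, 268 and 299 reads in the WT and 278, 274 and 325 in the KO, with overlapping groups (log2 fold change -0.08 ± 0.07 SE, adjusted p = 0.39). NNAT, the neuronatin gene that lies inside an intron of BLCAP, had 5, 6 and 2 reads in the WT and 5, 3 and 5 in the KO. L3MBTL1, a reader of methylated histones, had 4, 3 and 4 reads in the WT and 1, 2 and 4 in the KO. Neither had enough reads to be tested.

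On the scale of reads per kilobase of exon, the 23 tested genes in the WT ran from 302 RPKM for PEG10 and 82.2 for GNAS down to 0.33 for MEST, 0.2 for IGF2 and 0.14 for PLAGL1. RB1, NAP1L5, GRB10, PHLDA2 and UBE3A lay between 18.3 and 12.4 RPKM, and IGF2R was at 9.26. The median of all genes tested was 5.35 RPKM, and 9 of the 23 imprinted genes were above it. The genes with the widest standard errors, IGF2, PLAGL1, MEST, SLC22A18 and TFPI2, were all below 1 RPKM.

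A second list held 62 other genes reported as imprinted, of which 20 were tested, 9 rose, 6 fell and 5 were not called, beside the 51.5% called among all genes. Changes of 2-fold or more were called in 7 of the 20 tested, beside 7.8% of all genes tested. The list was chosen with earlier results of these data known, so this count is a description and not a test. NLRP2, encoding a protein of the egg's cytoplasmic complex needed by the early embryo, had 20, 24 and 15 reads in the WT and 3724, 3639 and 3767 in the KO (log2 fold change 7.48 ± 0.07 SE, adjusted p = 1.6e-81). NLRP7, its neighbour with a maternal-effect role, rose from 5, 2 and 9 reads to 209, 222 and 232 (log2 fold change 5.27 ± 0.20 SE, adjusted p = 4.7e-39). The zinc finger gene ZNF264 rose from 3, 7 and 7 reads to 161, 190 and 202 (log2 fold change 4.93 ± 0.21 SE, adjusted p = 8.6e-36). NLRP7 and ZNF264 passed the filter on low counts through the KO alone. In the other direction, the transcription factor gene GLIS3 fell from 43, 38 and 37 reads to 0, 1 and 1 (log2 fold change -5.70 ± 0.46 SE, adjusted p = 9.5e-19), and the scaffold gene MAGI2 from 115, 88 and 94 to 32, 26 and 28 (log2 fold change -1.85 ± 0.16 SE, adjusted p = 3.6e-17). GLIS3 passed the filter through the WT alone, and its summed WT level was 61.5 times that of the KO, with a 95% exact counting interval of 16.7 to 514. Of the 7 called with 2-fold or more, 5 rose and 2 fell, and the median over the 20 tested was 0.03.

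Another list held 42 factors known for setting or keeping imprints, of which 37 were tested, 11 rose, 14 fell and 12 were not called (67.6% called, beside 51.5% of all genes). A change of 2-fold or more was called in 3 of the 37 tested, the targeted SETDB1 among them, a share near the 7.8% of all genes tested. The largest was CTCFL, a germ cell relative of CTCF, the protein that binds the H19 control region. CTCFL had 2, 3 and 2 reads in the WT and 934, 975 and 1019 in the KO (log2 fold change 8.57 ± 0.14 SE, adjusted p = 4.4e-64). It passed the filter on low counts through the KO alone, and its summed KO level was 401 times that of the WT, with a 95% exact counting interval of 194 to 999. SETDB1 itself was the second, and its partner ATF7IP, which protects SETDB1 from degradation, rose from 586, 502 and 543 reads to 1675, 1780 and 1800 (log2 fold change 1.62 ± 0.04 SE, adjusted p = 3.7e-49). The H3K9 methyltransferase gene SUV39H1 fell (log2 fold change -0.74 ± 0.06 SE, adjusted p = 4.6e-19) and DNMT3L, a cofactor of DNA methylation in germ cells, rose (log2 fold change 0.72 ± 0.09 SE, adjusted p = 1.9e-11).

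Of the imprint readers, ZFP57 had no reads in either genotype, and ZNF445 had 405, 366 and 370 reads in the WT and 404, 421 and 412 in the KO (log2 fold change 0.05 ± 0.06 SE, adjusted p = 0.54). TRIM28, their corepressor, was lower by a small amount (log2 fold change -0.11 ± 0.03 SE, adjusted p = 1.7e-04), as were the maintenance methyltransferase gene DNMT1 (-0.23 ± 0.03 SE, adjusted p = 1e-10) and its partner UHRF1 (-0.19 ± 0.03 SE, adjusted p = 1.6e-07).

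The directional libraries gave a different and much thinner picture of the same genes. They held 532021 to 676691 gene counts, 5.23% to 5.30% of the listed reads, against about 80.3% in the non-directional kit, and which strand was counted is not given in the sources used here. For the median gene the directional tables held 0.746% of the non-directional reads, both taken per 1000000 listed reads. Among the 40, the reads were 0.479% for PEG10, 0.473% for BLCAP and 1.57% for GNAS, but 8.21% for TP73, 57.0% for MEST, 113% for SGCE and 149% for NNAT.

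Exon overlap with an oppositely transcribed gene was found among genes with high and with low shares, and its part in these shares was not tested. SGCE shares 219 exon bases with PEG10. MEST shares 228 with COPG2, whose own share was 0.638%, 602 with AC007938.2 and 484 with MESTIT1. NNAT shares 85 with BLCAP and TP73 633 with TP73-AS1. GNAS-AS1, which shares 1127 exon bases with GNAS, had 1 read in the 6 non-directional libraries and 13, 9, 3, 4, 6 and 7 in the directional ones. Whether directional reads on SGCE come from its own strand or from transcripts of the abundant PEG10 on the other strand was not tested.

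**Figure D4:**
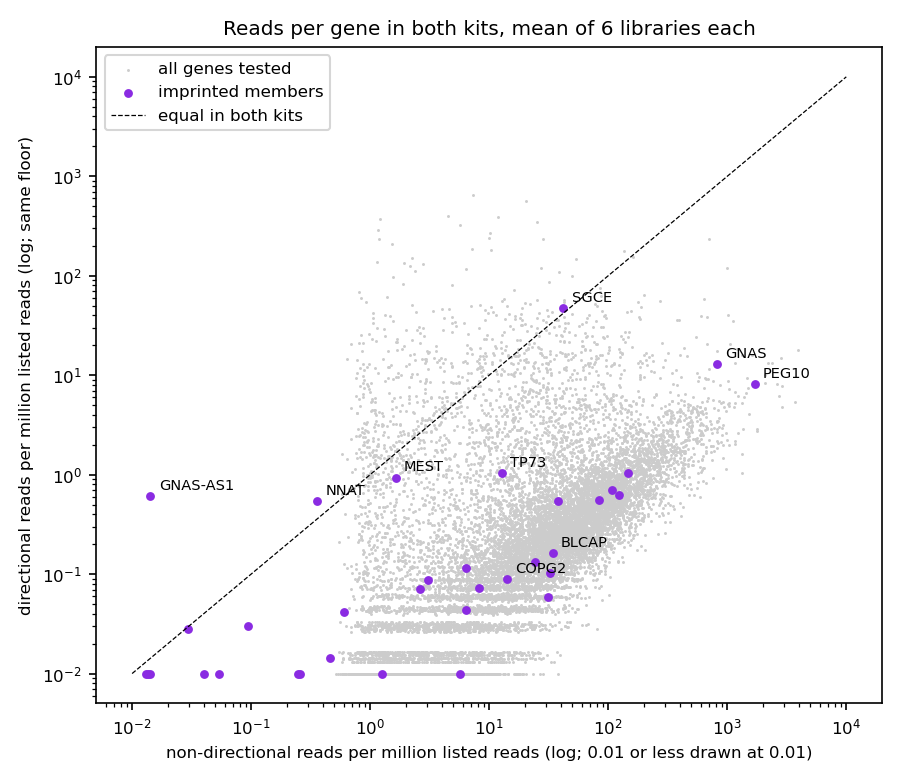
Reads per 1000000 listed reads in the directional (y axis) against the non-directional libraries (x axis), both log scales, each point a gene and the mean of 6 libraries, with the imprinted genes in purple. Most genes lie far below the line of equality, while SGCE at 113% and NNAT at 149% lie on or just above it and GNAS-AS1 far above.

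In the directional kit 6 of the 40 genes had enough reads to be tested, and 1 was called, against 16.2% of the 4745 genes tested there. SGCE had 528, 547 and 444 reads in the WT and 561, 552 and 577 in the KO, and rose with every KO library above every WT library in CPM (log2 fold change 0.21 ± 0.06 SE, adjusted p = 0.0065). Its call was lost without WT replicate 2 or KO replicate 3 (adjusted p = 0.066 and 0.06). The other 5 were not called, with log2 fold changes of -0.05 ± 0.13 SE for PEG10, -0.30 ± 0.37 for MEST, 0.42 ± 0.35 for IGF2R, -0.18 ± 0.10 for GNAS and -0.03 ± 0.35 for TP73. MEST, IGF2R and TP73 had only 8 to 17 reads in a directional library.

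The change of SGCE therefore had opposite signs in the 2 kits. In a fit over all 12 libraries the genotype by kit term of SGCE was 0.59 ± 0.09 SE on the log2 scale (adjusted p = 3.3e-09), where 1.82% of 15832 genes had a term past the threshold and the median term was 0.07. For the other 5 genes this term did not pass, including TP73 (1.00 ± 0.38 SE, adjusted p = 0.25) and MEST (-0.88 ± 0.48 SE, adjusted p = 0.58).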

How the data were processed

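RNA-seq of HAP1 WT and SETDB1 KO cells was analysed as 3 libraries per genotype in each of 2 kits. The authors deposited raw counts per gene (HTSeq layout). The submitters' processing notes name Trim Galore 0.4.4, STAR 2.6.0a, SAMtools 1.9, Picard 2.23.8, HTSeq 0.11.1, DESeq2 3.14, bedtools and hg38. The strand setting is not given in the sources used here, and the paper named in the header does not describe these libraries. Tables of signal at L1 elements were not used. Summary lines (no feature, ambiguous) were left out of library sizes. All 58735 identifiers matched GENCODE 29.

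Each kit was fitted alone in edgeR 4.0.16 (R 4.3.3): filterByExpr (minimum count 10, minimum total 15), TMM, quasi-likelihood F-test, Benjamini-Hochberg over all genes tested, threshold 0.05. Standard errors are the absolute log2 fold change over the square root of F. The fitting code was tested on simulated counts. Alternatives were RLE factors, library totals alone, DESeq2 1.42.0, no filter, a joint fit of all 12 libraries, a replicate block, leaving out each library, and a 2-fold rule. The fit with the KO libraries summed and the genotype by kit term were added after values were seen. Genes and lists were chosen with earlier results of these data known. Values are given for every gene of the 40 that was tested or reached 3 counts, and in the other lists for the 5 called genes with the largest absolute change and for neighbours of the 40 on which a result turned. The imprint readers, TRIM28, DNMT1, UHRF1, SNHG14 and LPAR6 were named by role or place, with values seen. Exon lengths and overlaps are from the union of annotated exons. Intervals and floors cover counting error only.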

Additional observations from a re-analysis of the deposited data

Results flagged for a closer look

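The genotype effect on SGCE differed between the kits by 0.59 on the log2 scale (SE 0.09, genotype by kit term of an edgeR fit over all 12 libraries, adjusted p = 3.3e-09). In the non-directional kit all 3 KO libraries were below all 3 WT libraries, and in the directional kit all 3 were above them. SGCE was also the gene with 113% as many directional as non-directional reads, each per 1000000 listed reads, where the median gene had 0.746%. It shares 219 exon bases with PEG10 on the opposite strand, and PEG10 was higher in the KO in the non-directional kit (log2 fold change 0.13). The part of PEG10 transcripts in the directional SGCE counts was not tested.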

How the results depend on the processing

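The number of imprinted genes called in the non-directional kit, 17, was 14 to 17 with other scalings, DESeq2, no filter, all 12 libraries or a replicate block (17), 14 to 18 when 1 library was left out, 15 with the KO libraries counted as 1, and 1 when a change of 2-fold was also asked for. The libraries share replicate numbers but nothing shows that these pair them (mean correlation of same-numbered deviations -0.01 and -0.0016 in the 2 kits, with 0 and 2 of 6 libraries closest to their own number). The replicate block gave 7074 calls over all genes against 7089 and changed no call among the 40. With the 2-fold rule the calls were 0 in the Prader-Willi and Angelman cluster, 1 on 11p15.5, 7 among the other imprinted genes, 3 among the maintenance factors and 0 in the directional kit. Without that rule, leaving out 1 library gave 3 to 4 calls on 11p15.5, where 4 were called. The single call of the Prader-Willi and Angelman cluster, UBE3A, was 0 with library totals alone, with DESeq2 and with the KO libraries counted as 1, and 0 to 1 when 1 library was left out. The single directional call, SGCE, was 0 with DESeq2 and 0 to 1 when 1 library was left out. The joint fit of all 12 libraries called 2400 genes higher and 4170 lower against 3517 and 3572, and 5 imprinted genes higher and 9 lower, and there PPP1R9A stood at -0.0052 and no longer on the higher side. The median log2 fold change over all genes was -0.046 in that joint fit and -0.0012 in the main fit. DESeq2 called 5359 genes against 7089 in the first kit and 330 against 769 in the directional kit. In the directional kit, leaving out 1 library moved PEG10 between -0.10 and 0.023 (above 0 without KO replicate 3) and TP73 between -0.28 and 0.14 (above 0 without WT replicate 1, WT replicate 3 or KO replicate 2), none of them called. The cause of these changes was not tested. Depth limits the 17 untested genes, since 3 counts equal about 0.3 CPM in 1 library and 0.10 CPM over the 3 libraries of a group.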
